A study of Mus musculus with 10 samples.

Results

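The genes described here are those of glucose transport, glycolysis and its side branches, 40 genes listed by symbol: glucose transporters, the enzymes that turn glucose into pyruvate and lactate with their muscle and non-muscle isoforms, the mitochondrial pyruvate carrier, and enzymes of the pentose phosphate, hexosamine and glycerol 3-phosphate branches. They were listed by name, with earlier results of these data known. Of the 40, 38 were among the 11790 genes with values, and Slc2a3 and Aldoc were not analysed here. A further 3, Pfkfb1, Pfkfb2 and Pfkfb3, had a mean under 1 FPKM and are given as values, which left 35 genes in the test. RNA came from heart tissue of 5 A-PDK1KO mice and 5 control mice with the genotype PDK1 flox/flox, all randomly fed and 10 to 11 weeks old. The labels give the genotype as A-PDK1KO and say no more of it. From what is known of the study it is read here as deletion of Pdpk1, the gene of 3-phosphoinositide-dependent kinase 1, in adipocytes, in which case the heart is not the tissue of the deletion. The sources used here do not give the Cre driver or the sex of the mice.

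Glucose enters heart muscle cells through transporters of the GLUT family, is trapped by hexokinase as glucose 6-phosphate and is committed to glycolysis by phosphofructokinase. The lower steps yield ATP, NADH and pyruvate, which either becomes lactate or enters mitochondria through the pyruvate carrier. The adult heart draws most of its energy from fatty acids, and insulin raises its glucose uptake by moving GLUT4 to the cell surface. Several steps have a muscle isoform and a non-muscle isoform encoded by separate genes.

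Levels are in FPKM, counted fragments scaled to gene length and to library size, and differences are A-PDK1KO minus control on the scale of log2(FPKM + 1), which understates changes of low genes. The value of 1 read implied 9249256 to 11384423 counted reads per heart, of which the listed genes took 0.956 to 1.04% in A-PDK1KO hearts and 0.888 to 1.14% in control hearts. Mitochondrially encoded transcripts took 34.3 to 41.5% in A-PDK1KO hearts and 32.7 to 40.4% in control hearts. Ventricular markers were present in every heart, at a summed 13457 to 15331 FPKM in A-PDK1KO hearts and 14312 to 16974 FPKM in control hearts. Their median difference was -0.11, 3 of 7 (Myl2, Actc1 and Tnni3) were lower at an unadjusted p under 0.05, 0 were called by limma, and Tnni3 (-0.21, limma adjusted p = 0.0605) had groups that did not overlap. Of 8 adipocyte markers Adipoq, Plin1, Cidec, Lep and Retn were not analysed here, Cfd lay at 0 to 1.36 FPKM, and Plin4 (0.28, limma adjusted p = 0.218) and Pparg (-0.21, limma adjusted p = 0.341) were not called. The atrial light chain Myl7 was at 10 FPKM or more in 2 A-PDK1KO hearts (replicates 3 and 5) and 2 control hearts (replicates 2 and 5). Pdpk1, taken as the targeted gene, differed by -0.04 ± 0.09 (SE) in the heart (limma adjusted p = 0.905), and a deletion in adipocytes alone cannot be checked from this value. Hbb-bs, a beta-globin gene, stood at 35.2 to 123 FPKM in A-PDK1KO hearts and at 758 FPKM in control replicate 1, with 16.4 to 132 FPKM in the other control hearts. The number of genes that reached 1 FPKM was 10723 in A-PDK1KO replicate 2 and 9671 to 10214 in the other 9 hearts.

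None of the 35 tested genes passed the test. The test was limma over all 9987 genes whose mean over the 10 hearts was 1 FPKM or above, with a call at a Benjamini-Hochberg adjusted p under 0.05. It called 0 of 35, where 2.08% of all genes tested were called, 1.21% higher and 0.871% lower. At an unadjusted p under 0.05 there were 7 of the 35 (20%), 3 higher and 4 lower, against 15.6% of all genes tested, 8.53% higher and 7.03% lower. A test on recovered reads with limma voom also called 0, beside 2.34% of all genes, with 8 at an unadjusted p under 0.05 (22.9%), beside 15.3% of all genes. The differences were small: they ran from -0.25 to 0.27, their median was -0.03 beside 0.02 for all genes tested, and the median absolute difference was 0.11 beside 0.10. The 95% interval, not adjusted for the number of genes, included 0 for 28 of the 35 and lay within 0.5 of 0 on the log2 scale for 32. The extreme bounds were -0.58, for Gapdh, and 0.54, for Gpd1. In bulk heart tissue, fewer cells of a type and less RNA per cell cannot be told apart.

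**Figure D1:**
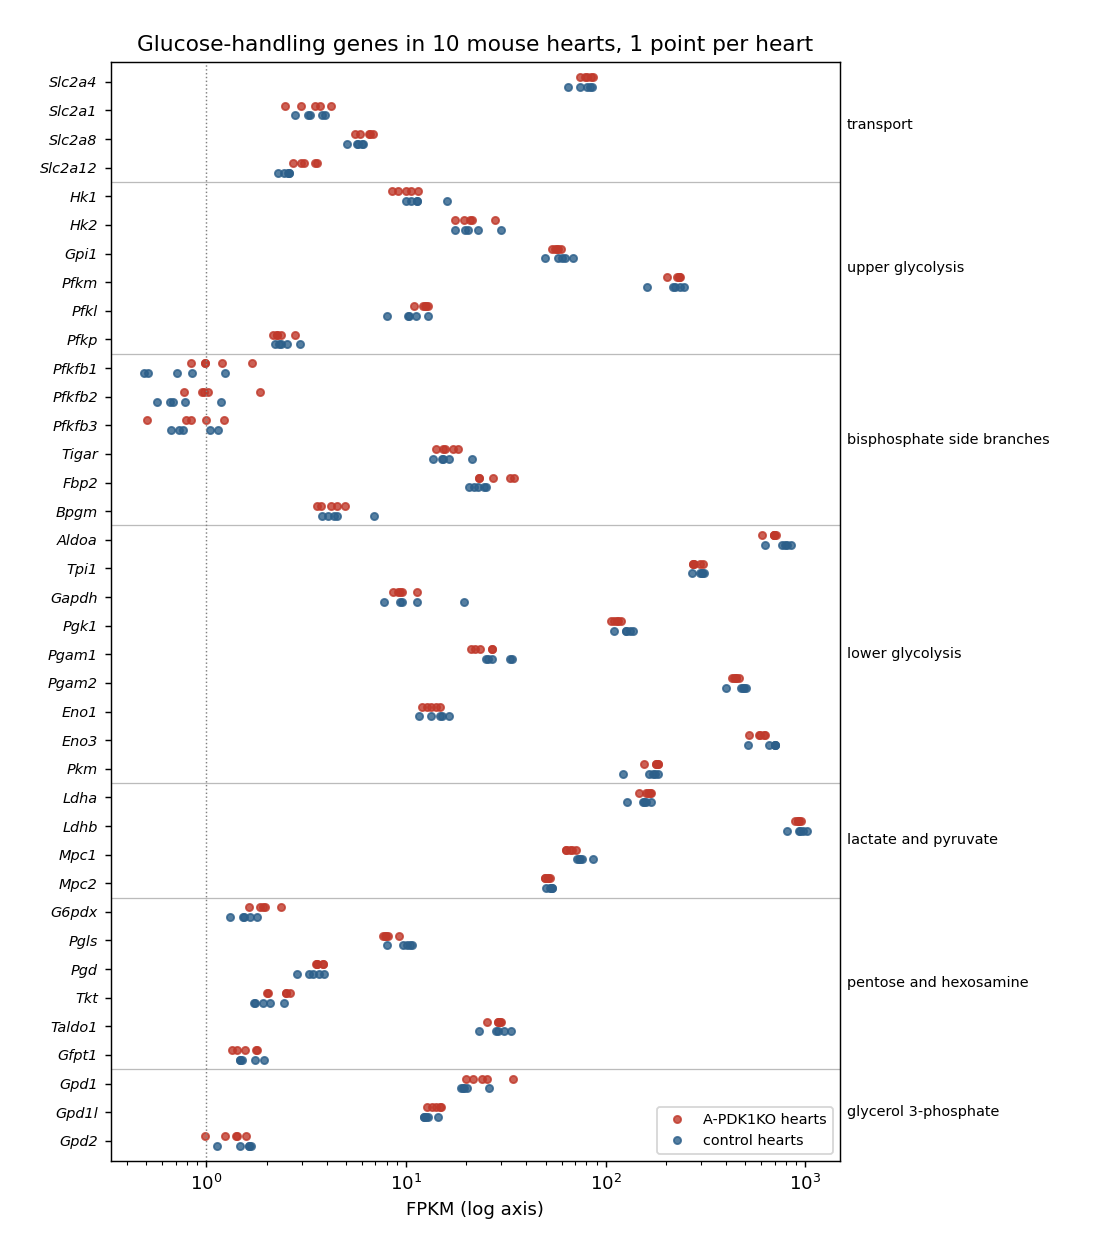
FPKM (log axis) of the 38 genes, 1 point per heart, with A-PDK1KO and control hearts in separate colours and genes grouped by step. Levels span from about 1 FPKM for the Pfkfb genes to a mean of 926 FPKM for Ldhb, and the ranges of the groups overlap for all tested genes except Slc2a12 and Mpc1. The dotted line marks 1 FPKM.

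Transporters came first in the pathway and held 1 of the 2 genes whose hearts did not overlap between groups. Slc2a4 encodes GLUT4, the insulin-responsive transporter of muscle and fat. It stood at 84.6, 80.5, 74.5, 78.6 and 86.7 FPKM in A-PDK1KO hearts, against 64.6, 74.0, 80.1, 83.4 and 85.6 FPKM in control hearts. The groups overlapped, control replicate 1 was the lowest heart, and the difference was 0.07 ± 0.08 (SE; limma adjusted p = 0.755), or 0.00 without that heart. Slc2a12 (chromosome 10, 22645011 to 22704285, mm10) encodes GLUT12, a transporter related to GLUT4 in function. It stood at 3.57, 3.49, 3.08, 2.72 and 2.99 FPKM in A-PDK1KO hearts, against 2.58, 2.56, 2.58, 2.27 and 2.45 FPKM in control hearts. Every A-PDK1KO heart lay above every control heart. The difference was 0.25 ± 0.08 (SE; 95% interval 0.08 to 0.43) and missed the threshold (limma adjusted p = 0.138). It rested on 93 to 145 reads per heart. Groups that did not overlap were found for 2 of the 35 genes (5.71%), 1 higher and 1 lower, against 4.96% of all genes tested, 2.72% higher and 2.23% lower. Slc2a1 encodes GLUT1, the basal transporter, and averaged 3.37 ± 0.66 FPKM in A-PDK1KO hearts and 3.41 ± 0.47 FPKM in control hearts (SD, n = 5 each). Slc2a8, which encodes the intracellular transporter GLUT8, averaged 6.25 ± 0.53 FPKM in A-PDK1KO hearts and 5.71 ± 0.40 FPKM in control hearts (SD, n = 5 each).

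Hexokinases commit glucose to the cell. Hk2, the insulin-responsive muscle isoform, stood at 17.5, 19.6, 21.5, 27.9 and 20.9 FPKM in A-PDK1KO hearts, against 20.5, 19.8, 23.0, 29.9 and 17.5 FPKM in control hearts. Replicate 4 was the highest heart in both groups and the groups overlapped throughout. Hk1, the isoform of most tissues, averaged 9.93 ± 1.19 FPKM in A-PDK1KO hearts and 11.8 ± 2.40 FPKM in control hearts (SD, n = 5 each), and control replicate 4 stood highest at 16.0 FPKM. The Hk1 difference was -0.22 ± 0.12 (SE; limma adjusted p = 0.408), or -0.11 without that heart. Gpi1 interconverts glucose 6-phosphate and fructose 6-phosphate. It stood at 56.0, 53.5, 57.8, 59.4 and 57.1 FPKM in A-PDK1KO hearts, against 49.6, 57.5, 62.3, 68.8 and 60.3 FPKM in control hearts. A-PDK1KO hearts sat inside the wider control range.

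Phosphofructokinase makes fructose 1,6-bisphosphate and was carried by the muscle gene. Pfkm stood at 235, 203, 227, 233 and 232 FPKM in A-PDK1KO hearts, against 161, 216, 222, 245 and 236 FPKM in control hearts. Control replicate 1 was the lowest of all hearts and A-PDK1KO replicate 2 the lowest of its group. The liver-type gene Pfkl averaged 12.2 ± 0.75 FPKM in A-PDK1KO hearts and 10.5 ± 1.75 FPKM in control hearts (SD, n = 5 each), a difference of 0.21 ± 0.10 (SE; limma adjusted p = 0.354), or 0.12 without control replicate 1. The platelet-type gene Pfkp was low, with 2.35 ± 0.24 FPKM in A-PDK1KO hearts and 2.47 ± 0.29 FPKM in control hearts (SD, n = 5 each).

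The bifunctional enzymes that make and break fructose 2,6-bisphosphate, an activator of phosphofructokinase, were all near 1 FPKM. Pfkfb2, the heart isoform, which is phosphorylated after insulin, stood at 0.949, 1.85, 0.774, 1.02 and 0.972 FPKM in A-PDK1KO hearts, against 0.656, 0.680, 0.776, 1.18 and 0.566 FPKM in control hearts. A-PDK1KO replicate 2 stood far above the rest, the groups overlapped, and counts were 44 to 131 reads. Pfkfb1, known from liver and skeletal muscle, had medians of 0.986 FPKM in A-PDK1KO hearts and 0.712 FPKM in control hearts. Pfkfb3, the inducible isoform, had medians of 0.841 FPKM in A-PDK1KO hearts and 0.765 FPKM in control hearts. In a fit with no filter on low values the differences were 0.29 for Pfkfb1 (limma adjusted p = 0.389), 0.24 for Pfkfb2 (limma adjusted p = 0.480) and -0.00 for Pfkfb3 (limma adjusted p = 0.998). Tigar, a phosphatase that lowers fructose 2,6-bisphosphate, averaged 16.1 ± 1.59 FPKM in A-PDK1KO hearts and 16.4 ± 2.95 FPKM in control hearts (SD, n = 5 each). Fbp2, the muscle fructose 1,6-bisphosphatase that runs this step backwards, stood at 23.1, 23.1, 34.6, 33.3 and 27.2 FPKM in A-PDK1KO hearts, against 20.6, 25.0, 24.5, 23.0 and 21.9 FPKM in control hearts. A-PDK1KO replicates 3, 4 and 5 lay above every control heart and the other two lay among them. The Fbp2 difference was 0.27 ± 0.11 (SE; limma adjusted p = 0.280).

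The lower steps run from aldolase to pyruvate kinase and are encoded by 9 of the tested genes. None of the 9 passed the test, 8 had a difference below 0 and Pkm had one above 0. Over all genes tested 54.6% lay above 0, and over the 35 genes 37.1%. The share over all genes depended on level: with a filter at 5 FPKM it was 45.5%, beside 9 of 26 listed genes. The ventricular markers also had a median below 0 (-0.11), and their part in these values was not tested. Tpi1 and Gapdh turned to above 0 in the 6 hearts with Myl7 under 10 FPKM (0.00 and 0.06), and Gapdh also without control replicate 5 (0.02). Aldoa splits fructose 1,6-bisphosphate into triose phosphates. It stood at 709, 605, 694, 695 and 697 FPKM in A-PDK1KO hearts, against 629, 763, 791, 849.9 and 804 FPKM in control hearts. All control hearts but replicate 1 lay above every A-PDK1KO heart, and the difference was -0.17 ± 0.08 (SE; limma adjusted p = 0.336). Tpi1, which interconverts the triose phosphates, stood at 306, 273, 273, 298 and 277 FPKM in A-PDK1KO hearts, against 269, 298, 302, 304 and 311 FPKM in control hearts. The ranges overlapped and the difference was -0.06 ± 0.06 (SE).

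Gapdh, the enzyme that makes NADH and 1,3-bisphosphoglycerate and a common reference gene, was low in these values. It stood at 9.31, 11.3, 9.55, 9.14 and 8.55 FPKM in A-PDK1KO hearts, against 7.74, 9.33, 9.56, 11.3 and 19.6 FPKM in control hearts. Control replicate 5 stood above all other hearts, and counts were 296 to 868 reads. In the mouse genome 79 other annotated genes, 77 of them pseudogenes, held a stretch of at least 100 bases at 95% identity or more to the Gapdh transcript, and such stretches covered 88% of it. One of them, the processed pseudogene Gm12671 (chromosome 4, 91851668 to 91852669), had 0 differences from Gapdh (chromosome 6) over 1002 coding bases. The first 90 coding bases of both (GENCODE mouse release 21, 5′ to 3′, start codon in capitals) are shown because a read from this stretch has no base that tells the genes apart.
Gapdh: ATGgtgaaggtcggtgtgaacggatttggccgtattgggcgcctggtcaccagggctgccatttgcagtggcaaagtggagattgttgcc
Gm12671: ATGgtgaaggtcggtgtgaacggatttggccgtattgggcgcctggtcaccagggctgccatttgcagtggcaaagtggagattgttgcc
The sources used here do not say how reads that match several places were counted, so the level and the difference of Gapdh, -0.18 ± 0.18 (SE), are uncertain. Near-identical stretches also covered 85.6% of the Eno1 transcript, 76.8% of Ldhb, 68.8% of Pgk1, 65.5% of Pkm, 56.6% of Ldha, 53.7% of Gpi1, 43.1% of Pgam1, 34.7% of Mpc1 and 19.3% of Tpi1, and their levels carry the same uncertainty.

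Pgk1 (X chromosome, 106187100 to 106203699) makes the first ATP of glycolysis. It stood at 110.2, 106, 115, 119 and 113 FPKM in A-PDK1KO hearts, against 110, 133, 127, 127 and 136 FPKM in control hearts. All control hearts but replicate 1 lay above every A-PDK1KO heart, and the difference was -0.16 ± 0.06 (SE; limma adjusted p = 0.244). Phosphoglycerate mutase is encoded by Pgam2 in muscle and by Pgam1 in most other tissues. Pgam2 stood at 448, 426, 438, 463 and 448 FPKM in A-PDK1KO hearts, against 400, 493, 488, 473 and 503 FPKM in control hearts. Here too replicate 1 was the only control heart below the A-PDK1KO hearts, and the difference was -0.08 ± 0.07 (SE; limma adjusted p = 0.619), or -0.14 without that heart. Pgam1 stood at 21.2, 22.1, 23.4, 26.9 and 26.8 FPKM in A-PDK1KO hearts, against 27.1, 25.6, 33.0, 34.0 and 25.1 FPKM in control hearts. A-PDK1KO replicates 1 to 3 lay below every control heart, and the difference was -0.25 ± 0.10 (SE; limma adjusted p = 0.261).

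The promoters of this pair are shown because the genes encode the same activity at levels far apart. Each line gives the 250 bases before the start site, 5′ to 3′ on the gene's strand (RefSeq, GRCm38.p6). Capitals mark ACGTG, a form of the core of the hypoxia response element, where found on either strand. Other forms of that core were not marked or counted. The Pgam2 window is chr11:5803797-5804046 on the minus strand and the Pgam1 window chr19:41911621-41911870 on the plus strand.
Pgam2: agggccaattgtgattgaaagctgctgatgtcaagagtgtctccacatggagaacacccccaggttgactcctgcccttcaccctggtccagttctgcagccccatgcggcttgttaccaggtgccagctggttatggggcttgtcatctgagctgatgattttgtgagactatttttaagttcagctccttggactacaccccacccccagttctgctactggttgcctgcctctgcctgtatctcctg
Pgam1: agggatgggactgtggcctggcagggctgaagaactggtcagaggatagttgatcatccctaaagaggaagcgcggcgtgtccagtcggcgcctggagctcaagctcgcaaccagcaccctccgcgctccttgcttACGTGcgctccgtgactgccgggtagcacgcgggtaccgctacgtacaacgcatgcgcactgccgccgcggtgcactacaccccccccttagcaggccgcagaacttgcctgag
The Pgam1 window held 1 ACGTG and the Pgam2 window 0. Among 55 windows of the 36 listed genes with a promoter entry, 18 (32.7%) held ACGTG on either strand, against 16.6% of 32851 windows of all genes. CACGTG, which contains ACGTG, was in 6 of the 55 windows (10.9%), against 6.02% of all, and GGGCGG, the GC box, in 28 (50.9%), against 32.7% of all. The windows of all genes were not matched to the listed genes for base content or for expression in the heart, and a gene can have several windows. The gaps between these shares were not tested. A match in a window is not evidence of binding.

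Enolase is encoded by Eno3 in muscle and Eno1 elsewhere. Eno3 stood at 626, 520.4, 618, 595 and 587 FPKM in A-PDK1KO hearts, against 516, 702, 702, 659 and 705 FPKM in control hearts. Replicate 1 was the only control heart below the A-PDK1KO hearts, and the difference was -0.15 ± 0.09 (SE; limma adjusted p = 0.460), or -0.23 without that heart. Eno1 averaged 13.4 ± 1.08 FPKM in A-PDK1KO hearts and 14.3 ± 1.86 FPKM in control hearts (SD, n = 5 each). Pkm, the pyruvate kinase gene of muscle and most tissues, differed by 0.11 ± 0.10 (SE; limma adjusted p = 0.650), or 0.01 without control replicate 1. It stood at 179, 156, 182, 177 and 183 FPKM in A-PDK1KO hearts, against 121, 164, 173, 177 and 182 FPKM in control hearts. The Pkm groups overlapped, with A-PDK1KO replicate 2 and control replicate 1 the lowest of their groups. Bpgm, which makes the 2,3-bisphosphoglycerate of red cells, averaged 4.19 ± 0.56 FPKM in A-PDK1KO hearts and 4.72 ± 1.23 FPKM in control hearts (SD, n = 5 each). Its highest value, 6.87 FPKM, was in control replicate 1, the heart with the highest Hbb-bs, and the part of red cells in it was not tested.

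**Figure D2:**
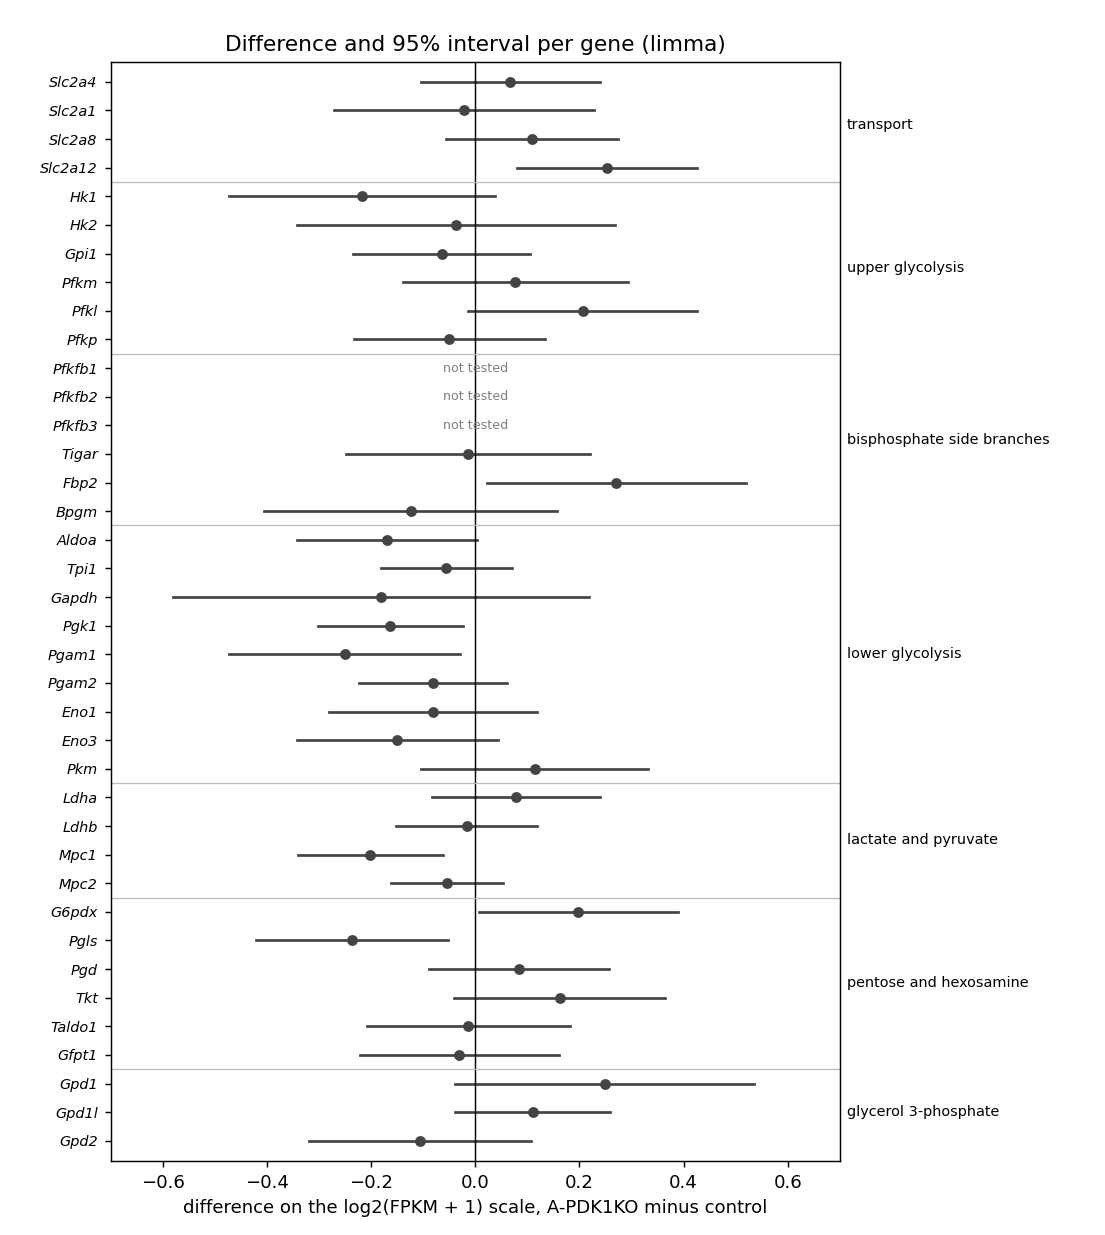
Difference A-PDK1KO minus control on the log2(FPKM + 1) scale for each of the 35 tested genes, with bars for the 95% interval, grouped by step; the 3 Pfkfb genes carry no value. Points lie between -0.25 and 0.27, 13 of the 35 lie right of 0 (37.1%, beside 54.6% of all genes tested), and 28 intervals cross 0. With a filter at 5 FPKM, 9 of 26 listed genes lie right of 0, beside 45.5% of all genes.

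Control replicate 1 bore on the lower steps. It was the lowest of all 10 hearts for 15 of the 35 genes, where 17.2% of all genes tested were lowest there. Without it 8 of the 35 genes were lower and 2 higher at an unadjusted p under 0.05, beside 7.33% lower and 7.10% higher over all genes in that fit, and still 0 were called. The limma adjusted p was then 0.0737 for Pgls, 0.0823 for Pgk1, 0.0827 for Aldoa and 0.0946 for Eno3. Control replicate 4 was the highest heart for 12 of the 35 genes, where 22.5% of all genes were highest there. Without control replicate 4, 3 of the 35 genes were lower and 5 higher at an unadjusted p under 0.05, and 0 were called. Over all genes in that fit 5.88% were lower and 11.8% higher. Its limma adjusted p was 0.200 for Pgls, 0.260 for Pgk1, 0.427 for Aldoa and 0.464 for Eno3. A-PDK1KO replicate 2 was the highest heart for 35.8% of all genes, and for 3 of the 35. With both control replicate 1 and A-PDK1KO replicate 2 left out, 0 of the 35 were called, and 7 were lower and 3 higher at an unadjusted p under 0.05, beside 9.61% lower and 5.28% higher over all genes. With the log2 level of Hbb-bs as a covariate, 0 were called, and 7 were lower and 4 higher at an unadjusted p under 0.05, beside 7.49% lower and 7.89% higher over all genes.

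**Figure D3:**
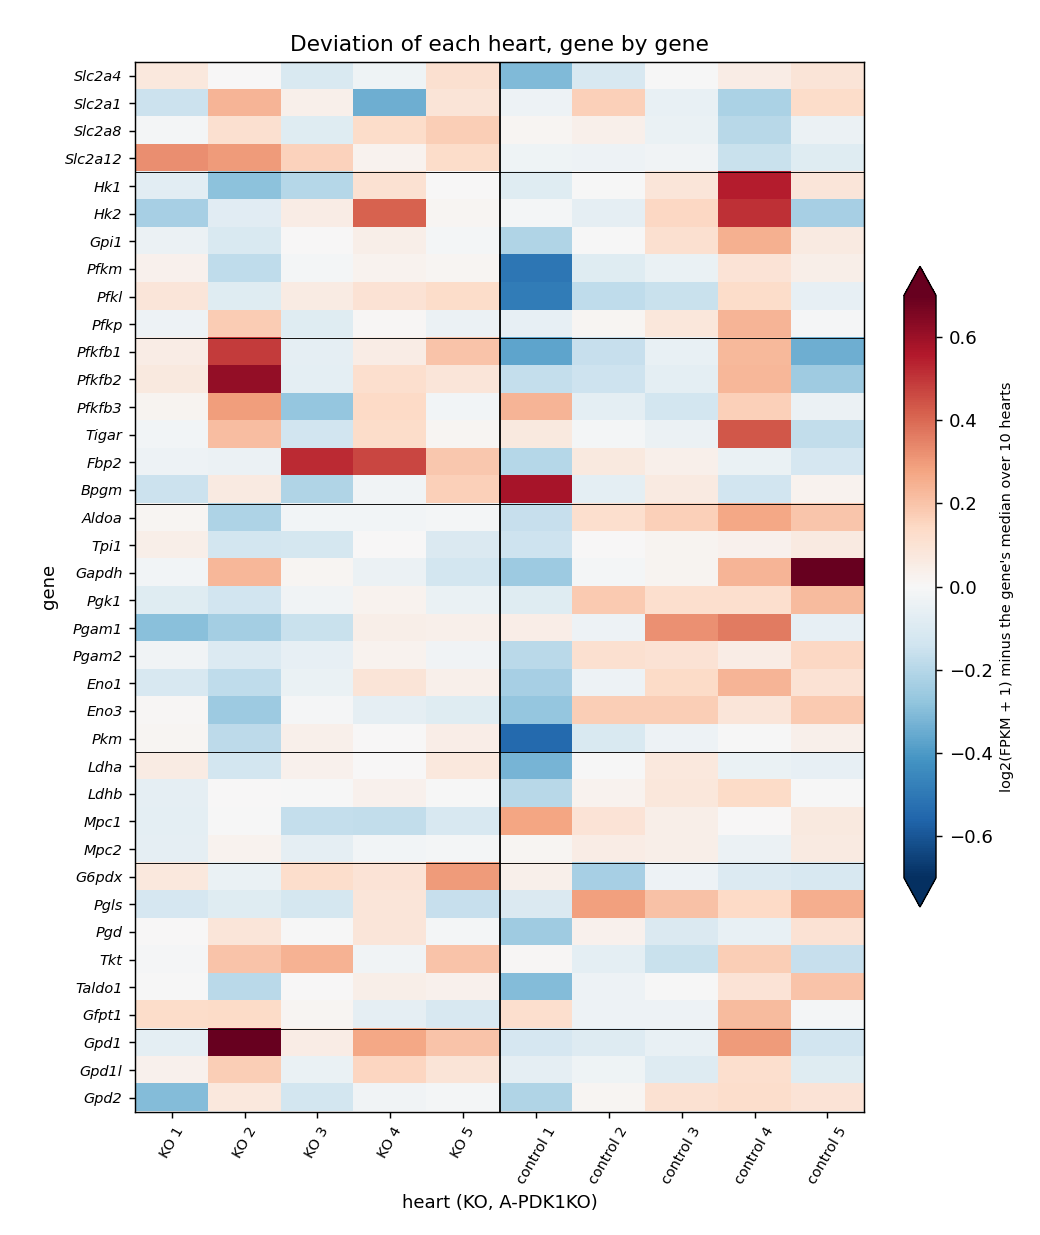
Deviation of each gene in each heart from the gene's median over all 10 hearts on the log2(FPKM + 1) scale, as colour that saturates at the ends of the bar, with A-PDK1KO hearts (KO) left of control hearts. Control replicate 1 is the lowest heart for 15 of the 35 tested genes and control replicate 4 the highest for 12.

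Lactate dehydrogenase interconverts pyruvate and lactate, and the pyruvate carrier brings pyruvate into mitochondria. Ldhb, the heart subunit, was the highest of all listed genes on the FPKM scale, at 885, 926, 922, 945 and 921 FPKM in A-PDK1KO hearts, against 809, 940.1, 977, 1014 and 924 FPKM in control hearts. A-PDK1KO hearts sat inside the control range, and the interval of the difference was -0.15 to 0.12. Ldha, the muscle subunit, stood at 166, 146, 163, 159.8 and 168 FPKM in A-PDK1KO hearts, against 127, 159, 168, 155 and 153 FPKM in control hearts. The groups overlapped and the difference was 0.08 ± 0.07 (SE; limma adjusted p = 0.678), or 0.02 without control replicate 1.

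Mpc1 (chromosome 17, 8282904 to 8297661) and Mpc2 encode the subunits of the mitochondrial pyruvate carrier. Mpc1 stood at 67.8, 70.9, 63.2, 62.9 and 65.9 FPKM in A-PDK1KO hearts, against 86.5, 75.9, 73.1, 71.4 and 74.6 FPKM in control hearts. Every A-PDK1KO heart lay below every control heart, with A-PDK1KO replicate 2 and control replicate 4 almost level. The difference was -0.20 ± 0.06 (SE; 95% interval -0.34 to -0.06) and missed the threshold (limma adjusted p = 0.143). Mpc2 stood at 49.6, 52.6, 49.5, 51.0 and 51.2 FPKM in A-PDK1KO hearts, against 52.4, 53.8, 53.3, 50.3 and 54.1 FPKM in control hearts. The Mpc2 groups overlapped, with control replicate 4 below 3 of the A-PDK1KO hearts, and the difference was -0.05 ± 0.05 (SE; limma adjusted p = 0.665). Genes on the other strand overlapped 23.1% of the Mpc1 exon length, and the sources used here do not say whether counting used strand.

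The pentose phosphate pathway makes NADPH and ribose, and its genes G6pdx, Pgd and Tkt were low on the FPKM scale. G6pdx, its entry enzyme, stood at 1.86, 1.63, 1.97, 1.91 and 2.35 FPKM in A-PDK1KO hearts, against 1.79, 1.31, 1.66, 1.55 and 1.52 FPKM in control hearts. All A-PDK1KO hearts but replicate 2 lay above every control heart. The difference was 0.20 ± 0.09 (SE; limma adjusted p = 0.301) over 41 to 75 reads. Pgls, the lactonase of the next step, stood at 7.88, 8.08, 7.85, 9.23 and 7.63 FPKM in A-PDK1KO hearts, against 7.97, 10.8, 10.1, 9.63 and 10.5 FPKM in control hearts. All control hearts but replicate 1 lay above every A-PDK1KO heart, and the difference was -0.24 ± 0.09 (SE; limma adjusted p = 0.197). Other genes on the same strand overlapped 20.6% of the Pgls exon length, so part of its count is uncertain. The same holds for Pfkfb2 (17.4%), Pkm (15.3%) and Pfkm (10.2%). Pgd, the second NADPH-making enzyme, averaged 3.67 ± 0.16 FPKM in A-PDK1KO hearts and 3.42 ± 0.40 FPKM in control hearts (SD, n = 5 each). Taldo1, transaldolase, stood at 28.9, 25.3, 28.9, 29.8 and 29.5 FPKM in A-PDK1KO hearts, against 23.2, 28.2, 28.9, 30.9 and 33.4 FPKM in control hearts. Taldo1 was the highest of this branch and its groups overlapped fully. Tkt, transketolase, averaged 2.34 ± 0.29 FPKM in A-PDK1KO hearts and 1.99 ± 0.29 FPKM in control hearts (SD, n = 5 each), with a difference of 0.16 ± 0.09 (SE; limma adjusted p = 0.444). Gfpt1, the entry enzyme of hexosamine synthesis, averaged 1.57 ± 0.20 FPKM in A-PDK1KO hearts and 1.63 ± 0.21 FPKM in control hearts (SD, n = 5 each).

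Glycerol 3-phosphate links glycolysis to lipid synthesis and to the respiratory chain. Gpd1, the cytosolic dehydrogenase, stood at 19.9, 34.5, 21.7, 25.4 and 24.1 FPKM in A-PDK1KO hearts, against 19.2, 19.6, 20.1, 25.9 and 18.9 FPKM in control hearts. A-PDK1KO replicate 2 and control replicate 4 were the highest of their groups, and the difference was 0.25 ± 0.13 (SE; limma adjusted p = 0.398), or 0.13 without A-PDK1KO replicate 2. Gpd1l, a related gene, averaged 14.0 ± 0.93 FPKM in A-PDK1KO hearts and 12.9 ± 0.85 FPKM in control hearts (SD, n = 5 each). Gpd2, the mitochondrial enzyme of the glycerol phosphate shuttle, averaged 1.33 ± 0.23 FPKM in A-PDK1KO hearts and 1.51 ± 0.23 FPKM in control hearts (SD, n = 5 each).

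The makeup of 8 isoform sets and of the pyruvate carrier, whose genes encode different subunits, was compared as the share of 1 gene in the summed FPKM of its set, which does not depend on the scaling between hearts. With 5 against 5 hearts the smallest exact permutation p is 0.00794, and 9 shares were compared. Eno3 made up 97.8 ± 0.18% of enolase FPKM in A-PDK1KO hearts and 97.9 ± 0.20% in control hearts (SD, n = 5 each). Slc2a4 made up 96.0 ± 0.78% of Slc2a4 and Slc2a1 together in A-PDK1KO hearts and 95.7 ± 0.74% in control hearts. Pgam2 made up 94.9 ± 0.45% in A-PDK1KO hearts and 94.2 ± 0.90% in control hearts. In the deposited FPKM these muscle isoforms held over 93% of their sets in every heart, as did Pfkm. Eno1 and Pgam1, but not Eno3 and Pgam2, have near-identical stretches in other genes, so these shares carry that uncertainty too. Pfkm made up 93.9 ± 0.17% in A-PDK1KO hearts and 94.3 ± 0.30% in control hearts (exact permutation p = 0.0794, adjusted p = 0.229). Ldhb made up 85.1 ± 0.86% of the dehydrogenase in A-PDK1KO hearts and 86.0 ± 0.61% in control hearts (exact permutation p = 0.127). Hk2 made up 68.2 ± 3.09% of Hk1 and Hk2 in A-PDK1KO hearts and 65.1 ± 2.63% in control hearts (exact permutation p = 0.119). The sets of Ldhb and Hk2 overlapped between the groups.
Gpd1 made up 63.7 ± 3.69% of Gpd1 and Gpd1l in A-PDK1KO hearts and 61.5 ± 1.72% in control hearts (exact permutation p = 0.254). Pfkfb2 made up 35.3 ± 2.48% of the 3 Pfkfb genes in A-PDK1KO hearts and 31.9 ± 2.31% in control hearts (exact permutation p = 0.0714).

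The share of Mpc1 in Mpc1 and Mpc2 was the only one whose groups did not overlap. It was 57.8, 57.4, 56.1, 55.2 and 56.3% in A-PDK1KO hearts, against 62.3, 58.5, 57.8, 58.6 and 58.0% in control hearts. The gap was narrow, between 57.76% in A-PDK1KO replicate 1 and 57.84% in control replicate 3. The difference of means was -2.51 percentage points (exact permutation p = 0.00794, the smallest possible, adjusted p = 0.0714 over the 9 shares). A lone share at the smallest exact p cannot get a lower adjusted p than this among 9 shares. The threshold was thus out of its reach with 5 against 5 hearts, and the miss carries no information. Without control replicate 1 the difference was -1.70 percentage points.

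**Figure D4:**
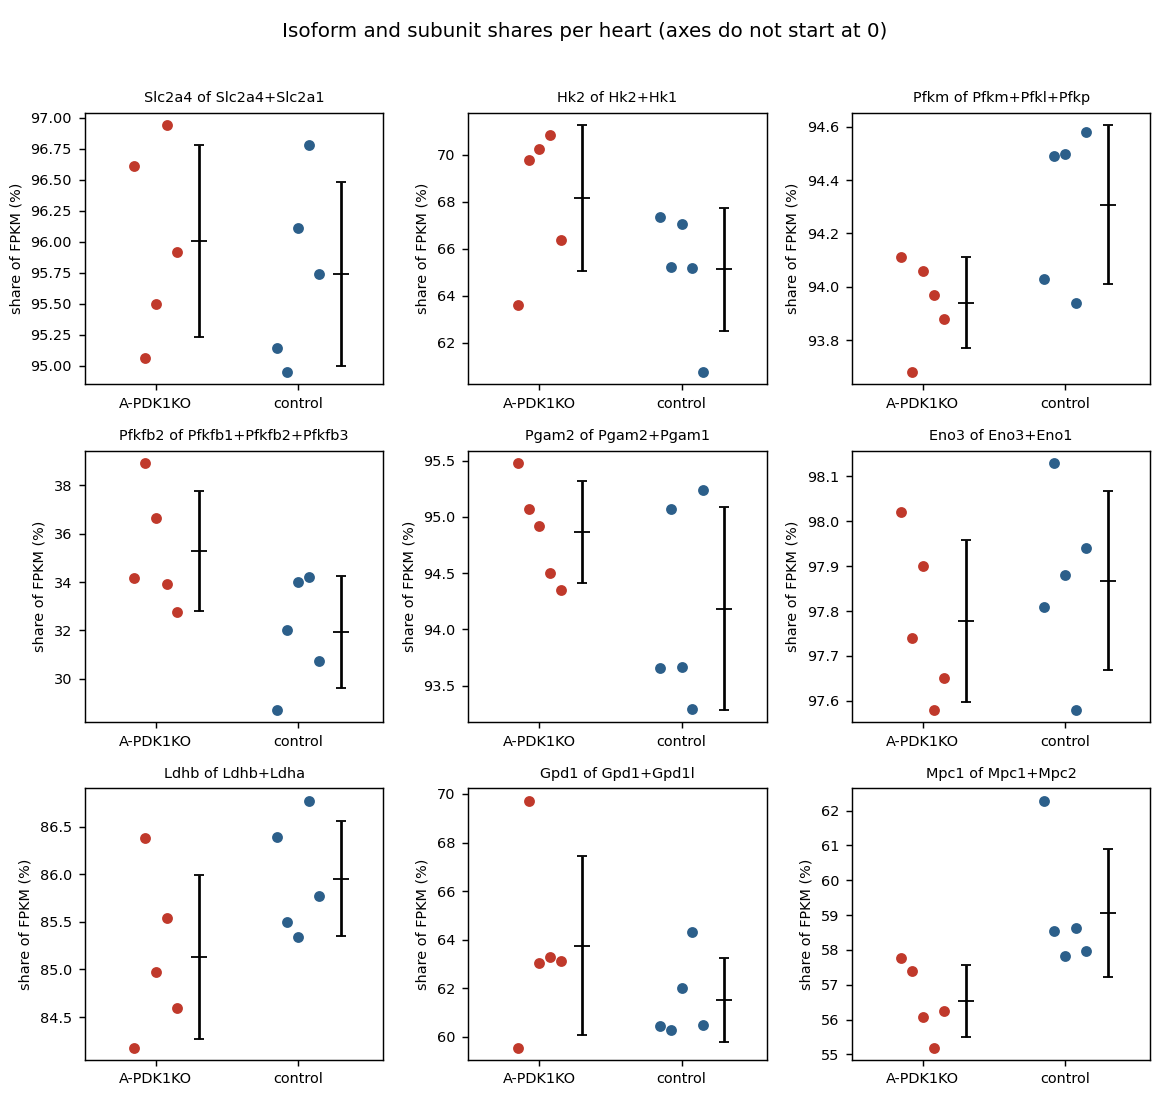
Share (percent) of 1 gene in the summed FPKM of its set (8 sets of isoforms, and the carrier subunits Mpc1 and Mpc2), 1 point per heart with bars for the group mean and SD, A-PDK1KO hearts left of control hearts for each of 9 sets, on axes that do not start at 0. The groups overlap in 8 sets, and in the Mpc1 set A-PDK1KO hearts lie at 55.2 to 57.76% and control hearts at 57.84 to 62.3%.

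The order of levels between genes depended on the length used. The deposited FPKM divide by the union of all annotated exons of a gene, which for some genes far exceeds the main transcript. By that measure, over all 10 hearts, Ldhb (926 FPKM), Aldoa (724 FPKM), Eno3 (623 FPKM) and Pgam2 (458 FPKM) were highest. With the length of the principal transcript in its place, Aldoa came to 1394, above Ldhb at 1115. The hexokinase levels drew close, with Hk1 at 24.1 and Hk2 at 23.6, against 10.9 and 21.8 FPKM as deposited. Mpc2 came to 371, above Mpc1 at 155, where the deposited values had Mpc1 (71.2 FPKM) above Mpc2 (51.8 FPKM). By principal transcript, Mpc1 made up 28.3% of the carrier genes in A-PDK1KO hearts and 30.5% in control hearts, and Hk2 51.2% of Hk1 and Hk2 in A-PDK1KO hearts and 47.8% in control hearts. By the same measure Pfkm held 89.2 to 90.86% of its set over the 10 hearts, Pgam2 92.56 to 94.98% and Ldhb 77.36 to 80.82%. Slc2a4 held 96.01 to 97.6% and Eno3 94.4 to 95.65%. Which transcripts the hearts used cannot be read from a value per gene. These shares, and the order within the hexokinase and carrier sets, are therefore uncertain.

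**Figure D5:**
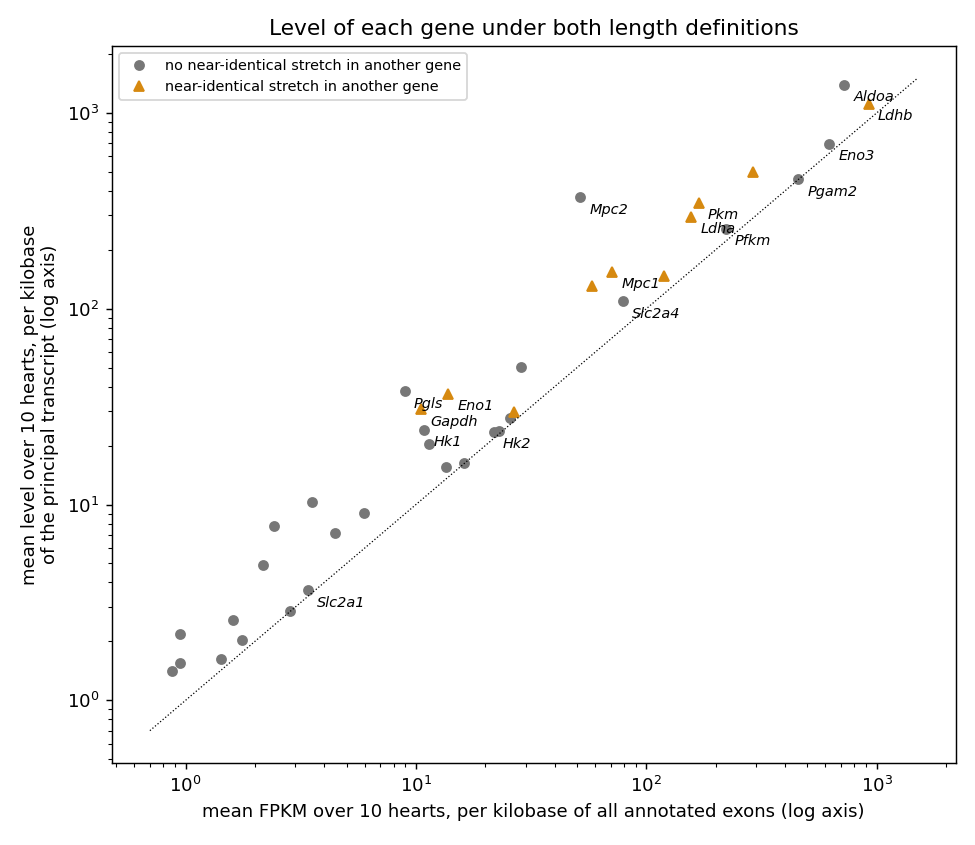
Mean level over all 10 hearts of each gene as deposited, per union exon length (FPKM), and recomputed per principal transcript length (log axes), with triangles for genes that have a near-identical stretch in another gene and a dotted line at equal values. Mpc2 and Gapdh lie far off the line of equal values, with 51.8 as deposited and 371 recomputed for Mpc2, and 10.5 and 30.7 for Gapdh.

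Other genes of glucose handling were counted by list, to be read beside the 2.08% of all genes tested that were called. Of 8 tested genes of transport and uptake outside the set above, 1 was called, Txnip, which encodes an arrestin-fold protein that restrains glucose uptake. It stood at 120, 221, 101, 93.8 and 88.4 FPKM in A-PDK1KO hearts, against 43.1, 55.4, 42.1, 57.2 and 45.5 FPKM in control hearts. Every A-PDK1KO heart lay above every control heart, and Txnip rose by 1.26 ± 0.21 on the log2(FPKM + 1) scale (SE; limma adjusted p = 0.0127). Of 8 tested genes of glycolysis, fructose and lactate outside the set, 1 was called, Bsg, which encodes basigin, the chaperone that brings monocarboxylate transporters to the cell surface. It stood at 593, 568, 635, 614 and 618 FPKM in A-PDK1KO hearts, against 717, 818, 857, 795 and 905 FPKM in control hearts. Every A-PDK1KO heart lay below every control heart, and Bsg differed by -0.43 ± 0.07 (SE; limma adjusted p = 0.00956). Txnip and Bsg were called in 21 of 22 other settings and not in the 6 hearts with Myl7 under 10 FPKM (differences of 1.51 for Txnip and -0.41 for Bsg, limma adjusted p = 0.115 and 0.213). The lactate transporter Slc16a1 had 35.6 ± 5.08 FPKM in A-PDK1KO hearts and 49.0 ± 7.66 FPKM in control hearts (SD, n = 5 each), a difference of -0.44 ± 0.12 (SE) that missed the threshold (limma adjusted p = 0.0809). It was named after its values were seen. Of 10 tested genes of the pentose phosphate, polyol and hexosamine branches and 12 tested regulators of glycolytic genes, 0 were called by limma, with 1 higher and 1 lower in the branches and 3 higher and 0 lower among the regulators at an unadjusted p under 0.05, beside 8.53% higher and 7.03% lower over all genes.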

How the data were processed

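RNA from the hearts of 5 A-PDK1KO and 5 control mice was measured by paired-end sequencing, and groups follow the genotype labels. FastQC 0.11.7 is named per the labels' protocols, and Trimmomatic 0.38, HISAT2 2.1.0, featureCounts 1.6.3 and the build mm10 per the submitters' processing notes. Not given in these sources are the strand setting, the handling of reads with several matches, the library kit and any batch. The deposited values are FPKM for 11790 genes, 1 column per heart; each gene reached 1.00 FPKM in at least 1 heart.

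FPKM were divided by the value of 1 read, using union exon lengths of GENCODE mouse release 21. Whole numbers of reads (tolerance 0.05) resulted for 98.5% of values and in all hearts for 98.3% of genes, and gave the read counts. FPKM are not counts, so log2(FPKM + 1) was tested for genes averaging 1 FPKM or above with limma 3.58.1 (R 4.3.3; empirical Bayes trend, two-sided, no covariate, Benjamini-Hochberg over 9987 genes). Voom on recovered reads was an alternative. Shares of isoforms and of the pyruvate carrier subunits were tested by exact permutation (two-sided) of all 252 splits (scipy 1.17.1, Python 3.11.15). Near-identical stretches were found with BLAST+ 2.17.0 (at least 100 bases at 95% identity). Promoter sequences are from RefSeq (GRCm38.p6). The limma step was tested on simulated data in which genes varied independently and changes were larger than the differences of the listed genes. It therefore does not bear on calls at the size of these differences.

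The members and gene lists were chosen with earlier results of these data known. Values in every heart are given for genes with an unadjusted p under 0.05 and for the most abundant genes of each step, and other genes by mean or range. The labels do not say whether the hearts of a group come from separate litters, so p-values measure the spread between these hearts. Alternatives were a pseudocount of 0.1, a filter at 5 FPKM or none, median-of-ratios factors, the TPM scale, a scaling that leaves out mitochondrial and haemoglobin genes, an atrial covariate, the 6 hearts with Myl7 under 10 FPKM, a replicate block and each heart left out. The removal of both control replicate 1 and A-PDK1KO replicate 2, and Hbb-bs as a covariate, were added after seeing the data. All 11 lists of cell type markers had 0 called genes, beside 2.08% of all genes tested. Some lists had few tested genes: 0 for Schwann and neuron, 1 each for brown adipocyte and skeletal muscle, and 2 for adipocyte. The count therefore says little on cell composition.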

Additional observations from a re-analysis of the deposited data

Results flagged for a closer look

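A heart was picked out where its gap to the nearest heart of its group exceeded 0.710 of the group's whole range. Chance picks about 1 in 20 groups, and 13 of 94 groups of 5 hearts were picked. In A-PDK1KO replicate 2, which also had the most genes at 1 FPKM or more, Pfkm was low at 203 FPKM (227 to 235 in the other A-PDK1KO hearts), Aldoa at 605 FPKM (694 to 709), Pkm at 156 FPKM (177 to 183) and Taldo1 at 25.3 FPKM (28.9 to 29.8), and Pfkfb2 was high at 1.85 FPKM (0.774 to 1.02). In A-PDK1KO replicate 4, Pgls was high at 9.23 FPKM (7.63 to 8.08).

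In control replicate 1, the heart with the highest haemoglobin, Eno3 was low at 516 FPKM (659 to 705 in the other control hearts) and Pkm at 121 FPKM (164 to 182), while Bpgm was high at 6.87 FPKM (3.81 to 4.50) and the Mpc1 share at 62.3% (57.8 to 58.6%). In control replicate 4, Hk1 was high at 16.0 FPKM (9.93 to 11.3), Gpd1 at 25.9 FPKM (18.9 to 20.1) and Gpd1l at 14.4 FPKM (12.3 to 12.9). The cause of these gaps was not tested.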

How the results depend on the processing

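No listed gene was called under any of 22 other settings, and the lowest limma adjusted p of any gene in any of them was 0.0737, for Pgls without control replicate 1. Of 761 recomputed differences 25 had the other sign, in 9 genes (Gapdh, Gfpt1, Hk2, Ldhb, Pfkm, Slc2a1, Taldo1, Tigar and Tpi1), and 26 genes kept 1 sign throughout. The number of the 35 genes with a difference above 0 was 13 (37.1%, beside 54.6% of all genes tested), and 12 to 18 with 1 heart left out. With median-of-ratios factors it was 13, beside 47.9% of all genes, and with a filter at 5 FPKM 9 of 26, beside 45.5%. With scaling that leaves out mitochondrial and haemoglobin genes it was 16, beside 59.2%. In the 6 hearts with Myl7 under 10 FPKM it was 19 of 37, beside 56.2%. The share of all genes called moved more: it was 2.08%, against 0.631% on the TPM scale, 0.0397% in the 6 hearts with Myl7 under 10 FPKM, 0.838% without both control replicate 1 and A-PDK1KO replicate 2, 3.26% with scaling that leaves out mitochondrial and haemoglobin genes, and 0.570 to 1.51% with 1 heart left out. It moved by over 1.5 times without replicates 1, 3 or 5 of A-PDK1KO or of the controls. The scaling without mitochondrial and haemoglobin genes gave 232 higher and 94 lower, against 121 higher and 87 lower. The cause was not tested, and the fits with hearts left out also had fewer hearts.

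With the replicate number as a block, 0 of the 35 genes and 1.53% of all genes were called. Same-numbered hearts of the 2 groups did not deviate together over all genes (correlations -0.12 to 0.09). A correlation over all genes cannot exclude a pairing by litter or batch, which the labels do not give. For the Mpc1 share the block gave an exact p of 0.0625, the smallest 5 pairs allow. Low genes such as G6pdx (41 to 75 reads) and Pfkfb1 (18 to 66 reads) are limited by depth.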
